A study of Saccharomyces cerevisiae with 8 samples.

Results

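The genes described here encode enzymes that make and break down the reserve carbohydrates trehalose and glycogen in *Saccharomyces cerevisiae*, together with phosphoglucomutases that feed both pathways. They are 10 of the 6697 genes with a coding sequence (CDS) count, were chosen by name, and all 10 were among the 6494 genes tested for a trend. Trehalose synthesis is represented by TPS1 (YBR126C), TPS2 (YDR074W), TPS3 (YMR261C) and TSL1 (YML100W), and trehalose breakdown by NTH1 (YDR001C). Glycogen synthesis is represented by GSY1 (YFR015C) and GSY2 (YLR258W), and glycogen breakdown by GPH1 (YPR160W). Phosphoglucomutase is represented by PGM1 (YKL127W) and PGM2 (YMR105C).

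RNA was sequenced from cultures of strain BY4741, a haploid laboratory strain of mating type a, in 8 conditions with 1 library each. In 7 of them LiCl and cycloheximide were combined along a growth isobole, a line of drug mixtures that all inhibit growth by 50%. Point 1 was cycloheximide only, points 2 to 6 were mixtures with changing ratios of the drugs, and point 7 was LiCl only. The culture without drug grew in the rich medium YPD alone. It was started at a lower cell density so that densities at harvest would be comparable. Cycloheximide blocks translation elongation, and LiCl is a salt whose lithium ion inhibits several phosphate-handling enzymes. Concentrations are not in the labels, so the point number served as the position on the isobole, and steps between points need not be equal in dose. As no condition was replicated, differences between 2 libraries have no replicate check, and their intervals cover counting error only.

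Both reserve sugars start from glucose 6-phosphate. Phosphoglucomutase interconverts glucose 6-phosphate and glucose 1-phosphate, from which UDP-glucose is made. UDP-glucose and glucose 6-phosphate are joined to trehalose by the trehalose synthase complex, and UDP-glucose alone is the donor for glycogen chains. In yeast these sugars accumulate when growth slows or nutrients run short, many of the genes are targets of the stress transcription factors Msn2 and Msn4, and phosphoglucomutase is an enzyme known to be inhibited by lithium.

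Msn2 and Msn4 bind the stress response element, AGGGG or, on the other strand, CCCCT. All 10 genes carried at least 2 copies of these letters in the 500 bases before their start codon, against 8.13% of the 6000 such windows of the genome (build R64, RefSeq sequence), where 34.1% held at least 1 copy. At least 4 copies were found in 4 of the genes and in 0.45% of all windows. TPS1 had 6 copies, TSL1 and PGM2 had 5 each, TPS2 had 4, NTH1 and PGM1 had 3 each, and TPS3, GSY1, GSY2 and GPH1 had 2 each. All 5 copies of PGM2 lie outside annotated genes, whereas 2 of the 3 copies of PGM1 lie inside a neighbouring tRNA gene. Of the TSL1 copies 2, and of the TPS1 copies 1, lie in a neighbouring annotated open reading frame. A match describes the letters and is not a binding site.

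Stretches of 30 bases around these copies are shown for PGM2, the gene with the steepest slope of the 10, and for 3 trehalose genes in which 2 copies lie close together. Each reads 5′ to 3′ towards the start codon, and capitals mark AGGGG or CCCCT. The PGM2 stretch is chrXIII:477805-477834 (minus strand), TPS1 chrII:490619-490648 (minus), TSL1 chrXIII:70440-70469 (plus) and NTH1 chrIV:452804-452833 (minus).
PGM2: ccaggaacaaacAGGGGttgaaaagtgtaa
TPS1: tcagggcAGGGGctctcAGGGGggcgccat
TSL1: ggagaAGGGGgtagaaccaAGGGGctagca
NTH1: ggacgaagCCCCTtatCCCCTagttaccga

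PGM2 and PGM1, GSY2 and GSY1, and TSL1 and TPS3 are pairs of paralogs, and reads that align equally well to several places were counted at each of them, so the sequences were compared. No stretch of 50 bases, the read length, in any of the 10 coding sequences occurs elsewhere in the genome. The coding sequences of PGM2 and PGM1 were 72.5% identical, those of GSY2 and GSY1 72.9% and those of TSL1 and TPS3 63.9%. The longest run shared by PGM2 and PGM1 is 23 bases, in capitals below with 10 flanking bases (PGM2 chrXIII:476860-476902, minus strand, and PGM1 chrXI:204248-204290, plus strand).
PGM2: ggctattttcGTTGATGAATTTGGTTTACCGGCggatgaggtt
PGM1: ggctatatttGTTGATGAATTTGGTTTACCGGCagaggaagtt
The longest runs shared by GSY2 and GSY1 and by TSL1 and TPS3 are 20 and 15 bases. GPH1 is the only one of the 10 whose coding sequence overlaps other annotated genes (YPR160W-A and the antisense YPR160C-A). Counting used no strand, so the reads of these overlapping genes cannot be told apart.

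The libraries held between 13693401 and 28042336 CDS counts, with 6616 to 6654 genes detected. Levels are counts per 1000000 CDS counts (CPM) after TMM scaling. It adjusts for differences in RNA composition between libraries and assumes that most genes do not change. The TMM factor was 0.855 in the no drug library and 0.955 to 1.07 in the others, so comparisons with no drug depend more on this scaling than comparisons along the isobole. Of the genes deleted in BY4741, URA3 had 0 counts in all libraries and LEU2 and MET17 at most 0.07 CPM, while HIS3, of which the strain keeps a part, had 21.5 to 51.2 CPM. The a-specific genes MFA1, MFA2 and STE2 summed to 308 to 448 CPM on the isobole and 232 CPM without drug, and the alpha-specific genes to at most 5.42 CPM.

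**Figure D1:**
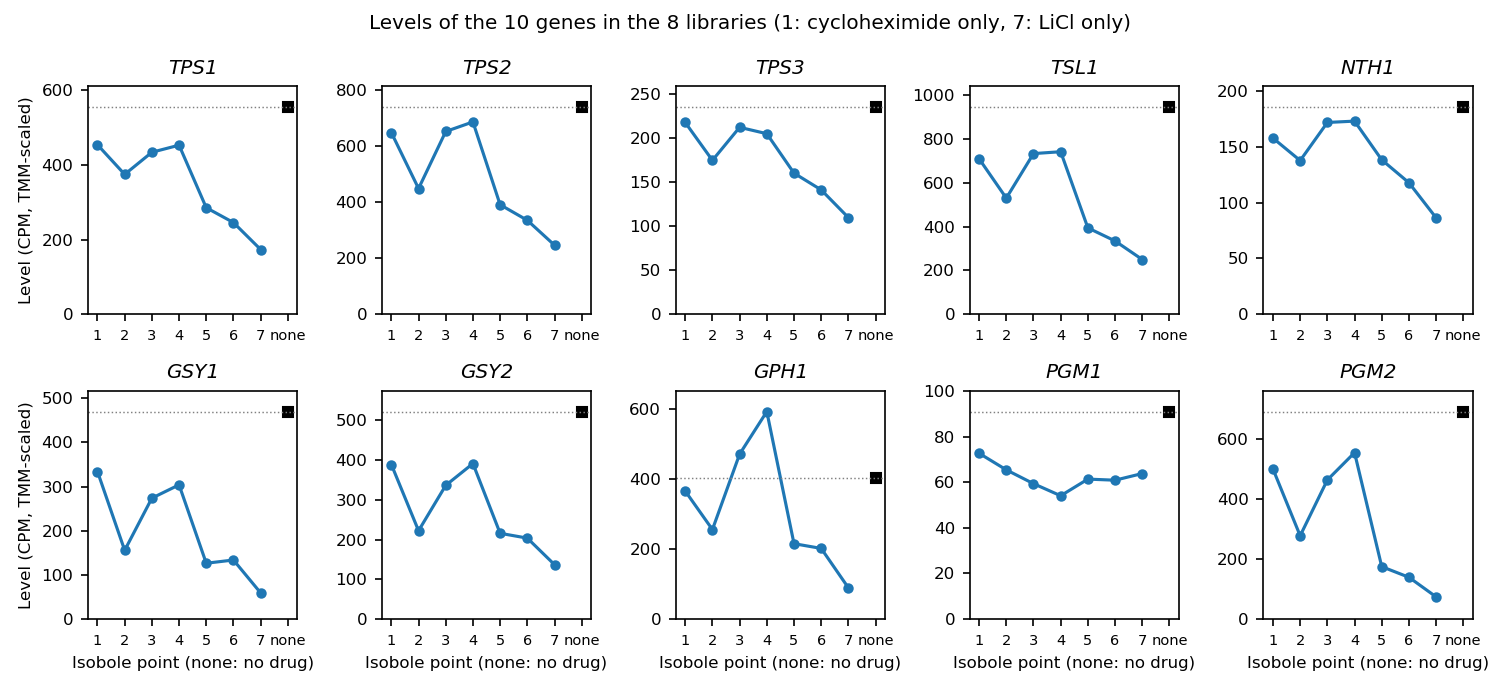
Level of each of the 10 genes in the 8 libraries, in TMM-scaled CPM on a linear axis from 0. Blue points joined by a line are the 7 isobole libraries in order, and the black square and dotted line are the no drug library. 9 genes dip at point 2, stand high at points 3 and 4 and are lowest at point 7, whereas PGM1 stays between 54.0 and 72.7 CPM along the isobole.

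Along the isobole the levels of 7 of the 10 genes fell towards LiCl, as tested by a linear slope over the 7 points with edgeR's quasi-likelihood test and an adjusted p under 0.05. Over all genes tested 15.7% fell, and none of the 10 rose, against 15.6% of all genes. All 10 slopes were negative, with a median of -0.21 on the log2 scale per isobole point, against 0.00 over all genes. The 7 genes were all 4 of trehalose synthesis, both glycogen synthases and PGM2. NTH1, GPH1 and PGM1 did not pass the test. In RNA of whole cultures, a lower level in every cell and fewer cells with the message cannot be told apart. The count depended on single libraries: with the same edgeR test it was 4, 8, 6, 9, 5, 2 and 0 without points 1 to 7 in turn. Over all genes 758, 1019, 804, 1130, 887, 749 and 491 fell in these fits, against 1017 with all points. All 10 slopes were still negative without point 7, with a median of -0.14.

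PGM2 encodes the major phosphoglucomutase. It had 499, 277, 462, 553, 174, 139 and 73.8 CPM at points 1 to 7, and 690 CPM without drug. The first 4 points were all above the last 3, and every isobole library was below the no drug library. Its slope was -0.42 ± 0.12 (SE) per point (edgeR, adjusted p = 0.0223), the steepest of the 10 genes. Between its highest and lowest isobole libraries the level differed 7.49-fold.

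PGM1 encodes the minor isoform of the same enzyme. Its levels were 72.7, 65.4, 59.3, 54.0, 61.3, 60.9 and 63.8 CPM at points 1 to 7, and 90.9 CPM without drug. The range over the isobole was 1.34-fold, and the lowest library was point 4, where PGM2 was at its highest. Its slope was -0.03 ± 0.02 per point (edgeR, adjusted p = 0.432), and without point 1 the estimate was 0.00290. PGM1 was below no drug in all 7 isobole libraries.

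TPS1, the synthase subunit that makes trehalose 6-phosphate, had 453, 374, 433, 452, 285, 245 and 173 CPM at points 1 to 7, and 555 CPM without drug. Its slope was -0.21 ± 0.05 per point (edgeR, adjusted p = 0.00944). TPS2, the phosphatase subunit that releases trehalose, had 647, 448, 651, 685, 390, 335 and 246 CPM at points 1 to 7, and 739 CPM without drug, with a slope of -0.21 ± 0.06 (edgeR, adjusted p = 0.0269). In both genes points 5 to 7 were below points 1 to 4, and with TMM scaling no isobole library reached the no drug level. Total counts were one of the alternatives, and their use at every isobole point was added after the data were seen. With them TPS1 was above no drug at point 1 (0.01 on the log2 scale) and TPS2 at points 1, 3 and 4 (up to 0.15).

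TSL1 and TPS3 encode the paired regulatory subunits of the same complex. TSL1 had 710, 531, 734, 743, 395, 335 and 250 CPM at points 1 to 7, and 948 CPM without drug. TPS3 was lower and changed less, with 217, 175, 212, 205, 160, 141 and 110 CPM at points 1 to 7, and 235 CPM without drug. The slopes were -0.24 ± 0.06 for TSL1 (edgeR, adjusted p = 0.0154) and -0.14 ± 0.04 for TPS3 (edgeR, adjusted p = 0.0144). Whether these slopes differ was not tested.

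NTH1 encodes the neutral trehalase, which hydrolyses trehalose in the cytosol. It had 158, 138, 172, 173, 138, 118 and 86.4 CPM at points 1 to 7, and 186 CPM without drug. Points 2 and 5 were level with each other, so the lower and upper parts of the isobole overlapped in this gene. The slope of -0.12 ± 0.04 per point did not pass the test (edgeR, adjusted p = 0.0575). With DESeq2 it did (adjusted p = 0.0173).

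GSY1 and GSY2 encode glycogen synthase, GSY2 being the isoform usually described as predominant. GSY1 had 334, 156, 274, 304, 127, 134 and 59.3 CPM at points 1 to 7, and 470 CPM without drug. GSY2 had 389, 222, 336, 391, 216, 204 and 137 CPM at points 1 to 7, and 522 CPM without drug. Both dropped at point 2 and rebounded at points 3 and 4, and the point 2 library of GSY1 was closer to points 5 and 6 than to point 3. The slopes were -0.32 ± 0.09 for GSY1 (edgeR, adjusted p = 0.0261) and -0.20 ± 0.06 for GSY2 (edgeR, adjusted p = 0.0407).

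GPH1 encodes glycogen phosphorylase, which releases glucose 1-phosphate from glycogen. It had 365, 255, 471, 592, 215, 202 and 89.2 CPM at points 1 to 7, and 403 CPM without drug. With TMM scaling it was the only one of the 10 with isobole libraries above no drug, at points 3 and 4. With total counts 5 of the 10 had such libraries: GPH1, TPS2, TPS3 and NTH1 at points 1, 3 and 4, and TPS1 at point 1. Its isobole libraries spanned 6.64-fold, but the scatter about a line was wide, and the slope of -0.28 ± 0.13 per point did not pass the test (edgeR, adjusted p = 0.110). Without point 4 the slope was -0.28 and passed (edgeR, adjusted p = 0.0236).

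The steps between neighbouring points were shared by most of the genes. From point 1 to point 2 all 10 were lower at point 2, with a median log2 difference of -0.47, against 0.00 over all genes. At point 3, 9 of the 10 were higher than at point 2, with a median of 0.50, while PGM1 was lower (-0.14). Point 4 differed little from point 3, with a median of 0.07. The step with the lowest median was between points 4 and 5: 9 of the 10 were lower at point 5, by a median of -0.84, with PGM2 at -1.67 and PGM1 at 0.18. Points 6 and 7 each continued downwards in 9 of the 10, by medians of -0.20 and -0.48. The median over all genes lay between -0.01 and 0.01 in each of these steps. With 1 library a point, a feature of one culture and a feature of one drug ratio cannot be told apart.

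The curvature term, a squared point number added to the slope, passed the test for 0 of the 10 genes in either direction (edgeR). Over all genes 0.875% passed with a negative estimate, in which the middle of the isobole is high relative to its ends, and 0.307% with a positive one. At an unadjusted p under 0.05 there were 7 of the 10 with a negative estimate, against 11.1% of all genes, and 1, PGM1, with a positive one, against 10.1%. The estimate was negative for 9 of the 10, with a median of -0.06 against 0.00 over all genes. The most negative was GPH1 at -0.15 ± 0.04 (edgeR, adjusted p = 0.0782), followed by PGM2 at -0.12 ± 0.04 (edgeR, adjusted p = 0.139). The mixtures did not all lie on one side of the straight line, on the log2 scale, between cycloheximide only and LiCl only. At point 2 all 10 genes were below it (median -0.17). At points 3 to 6 the 9 genes other than PGM1 were above it, with medians over the 10 genes of 0.44, 0.77, 0.24 and 0.29. Over all genes the median at points 2 to 6 lay between -0.004 (point 4) and 0.006 (point 2). The share of all genes on each side of their line was not counted. PGM1 had a curvature of the opposite sign at 0.03 ± 0.01 (edgeR, adjusted p = 0.182). With DESeq2, 2 genes passed, TPS1 and NTH1, and with edgeR 2 passed without point 2, NTH1 and GPH1. Over all genes the negative estimates that passed numbered 195 with DESeq2 and 146 without point 2, against 57 in edgeR with all points.

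Against the culture without drug, the levels of the 10 genes were lower in LiCl only. A change of at least 2-fold was seen in 9 of the 10 genes, all downwards, against 6.44% of all genes that were at least 2-fold lower and 11.6% that were at least 2-fold higher. The median log2 ratio was -1.80, against 0.02 over all genes. PGM2 was 9.34-fold lower in LiCl only, with a log2 ratio of -3.22 (95% counting interval -3.29 to -3.16). GSY1 was 7.92-fold lower, at -2.99 (-3.06 to -2.91), and GPH1 4.52-fold lower, at -2.18 (-2.24 to -2.11). TSL1 and GSY2 were at -1.92 and -1.93, TPS1 at -1.68, TPS2 at -1.59, and NTH1 and TPS3 at -1.11 and -1.10. PGM1 was at -0.51 (-0.62 to -0.41), a 1.43-fold lower level. Scaling by total counts instead of TMM gave a median of 0.34 over all genes in this comparison, and left NTH1 and TPS3 at -0.79 and -0.78, short of 2-fold.

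**Figure D2:**
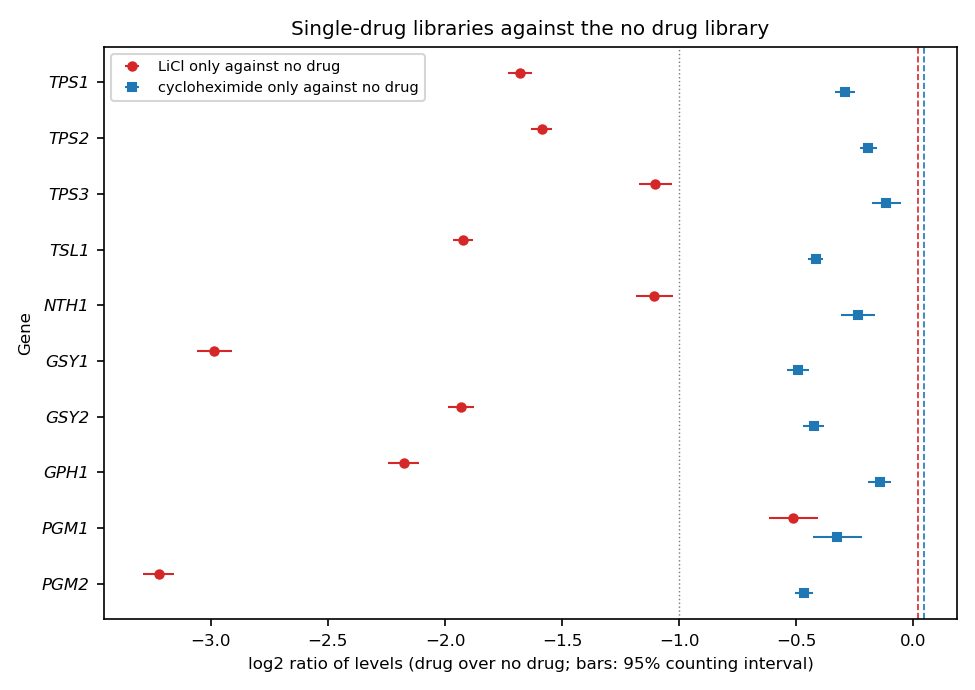
log2 ratio of each gene's level in LiCl only (red circles) and in cycloheximide only (blue squares) over no drug, with bars for the 95% counting interval. Dashed lines are the medians over all genes (0.02 for LiCl only, 0.04 for cycloheximide only), and the dotted line marks 2-fold lower. In LiCl only 9 of the 10 genes lie left of the dotted line, and in cycloheximide only none do.

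At the same growth inhibition, cycloheximide only gave much smaller differences. None of the 10 genes was changed by 2-fold against no drug, whereas 2.13% of all genes were at least 2-fold lower and 5.82% at least 2-fold higher. The log2 ratios were between -0.49 for GSY1 and -0.11 for TPS3, with a median of -0.31 against 0.04 over all genes. PGM2 was at -0.47 (-0.51 to -0.43) and PGM1 at -0.32 (-0.43 to -0.22). These directions depend on the scaling: with total counts the median of all genes was 0.34, and TPS1, TPS2, TPS3, NTH1 and GPH1 turned positive, between 0.01 and 0.19. All 10 genes lay below the median of all genes under both scalings.

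LiCl only was then set against cycloheximide only, the ends of the isobole. At least 2-fold lower levels in LiCl only were seen for 7 of the 10 genes, against 7.18% of all genes, and none of the 10 was at least 2-fold higher, against 5.97%. The median log2 ratio was -1.45, against 0.02 over all genes. PGM2 was at -2.76 and GSY1 at -2.49, while TPS3 (-0.99), NTH1 (-0.87) and PGM1 (-0.19) stayed within 2-fold. This comparison shares its LiCl only library with the one against no drug, so their values are not independent.

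An edgeR fit over all 8 libraries compared a straight line along the isobole, read at its centre (point 4), with no drug. The line was lower than no drug for 5 of the 10 genes, against 11.7% of all genes. It was higher for none, against 15.7%. The point 4 library did not lie on this line. Its own log2 ratios over no drug were -0.63 for GSY1, -0.32 for PGM2, -0.75 for PGM1 and 0.55 for GPH1. The fit assumes that the lone no drug library varies like the isobole libraries. All 10 estimates were negative, with a median of -0.70 against 0.04 over all genes. By edgeR the 5 genes were GSY1 at -1.37 ± 0.42 (adjusted p = 0.0392), GSY2 at -0.995 ± 0.31 (0.0407), TSL1 at -0.91 ± 0.29 (0.0447), TPS1 at -0.74 ± 0.24 (0.0423) and PGM1 at -0.54 ± 0.14 (0.0175). PGM2 was at -1.33 ± 0.50 and did not pass (edgeR, adjusted p = 0.0766). The other 4 genes had adjusted p from 0.0908 for TPS3 to 0.594 for GPH1. This count was not stable: with total counts it was 0 and the median of the 10 genes was -0.44, against 0.30 over all genes. Without single isobole libraries it was 1 (without point 1, 5 or 6), 2 (without point 3), 3 (without point 2), 5 (without point 7) or 8 (without point 4). Over all genes 764 were lower with TMM and all libraries, 233 with total counts, and 584 to 904 when leaving out each isobole library.

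Per kilobase of coding sequence, PGM2 had the highest level of the 10 genes without drug (403 CPM per kb) and PGM1 the lowest (53.1). In LiCl only TPS1 was the highest (116 CPM per kb), PGM2 had 43.2 and PGM1 37.2 CPM per kb, and GSY1 was the lowest (27.9). Within a library, shares of a pair of genes need no scaling between libraries. PGM2 made up 87.3%, 80.9%, 88.6%, 91.1%, 74.0%, 69.6% and 53.7% of the summed PGM2 and PGM1 counts per kilobase at points 1 to 7, and 88.4% without drug. In LiCl only the share had a 95% counting interval (Clopper-Pearson) of 52.2% to 55.2%, against 87.7% to 89.0% without drug. The phosphoglucomutase messages were thus close to evenly divided in LiCl only and mostly PGM2 in the other libraries.

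The other pairs moved less. GSY2 was 69.9% of GSY2 and GSY1 in LiCl only (68.7% to 71.0%), against 52.7% without drug (51.9% to 53.6%). TSL1 was 68.7% of TSL1 and TPS3 in LiCl only (67.8% to 69.5%), against 79.5% without drug (78.8% to 80.1%). TPS1, set against the trehalase NTH1, was 75.2% of the pair in LiCl only (74.3% to 76.1%), against 81.9% without drug (81.2% to 82.6%). The synthase GSY2 set against the phosphorylase GPH1 followed no single direction: it was 57.7%, 52.7%, 47.8%, 45.8%, 56.2%, 56.4% and 66.3% of the pair at points 1 to 7, and 62.3% without drug. GPH1 thus exceeded GSY2 only at points 3 and 4.

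**Figure D3:**
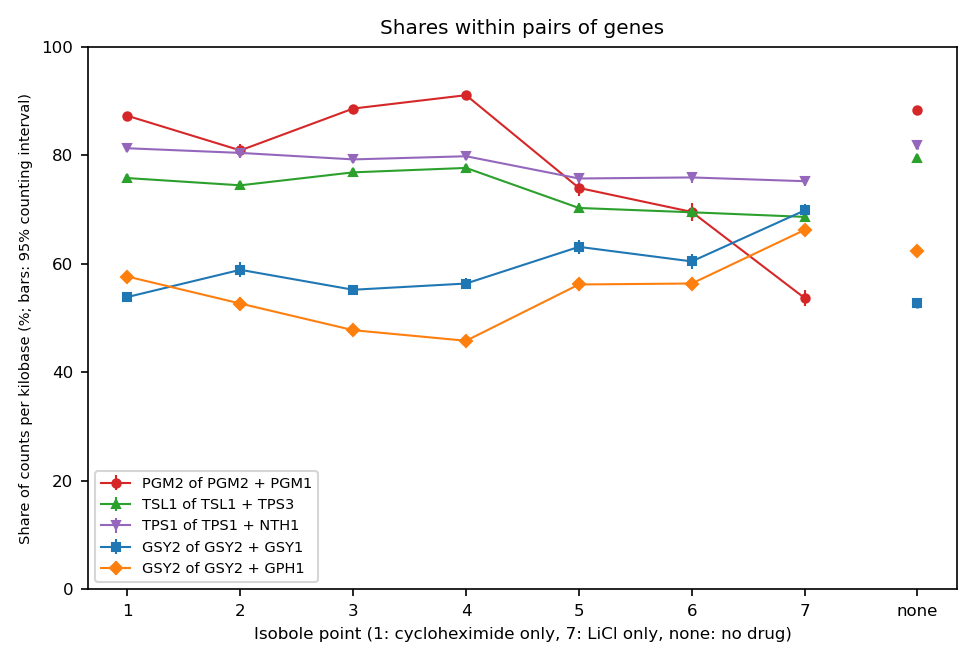
Share of the first gene in the summed counts per kilobase of each pair, in percent, for the 7 isobole libraries (joined points) and the no drug library (right), with bars for the 95% counting interval. The PGM2 share is lowest in LiCl only at 53.7%, against 88.4% without drug, while the GSY2 share of GSY2 and GSY1 is highest there at 69.9%.

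Over the 8 libraries the log2 levels of 9 of the genes were alike. PGM2 had a Pearson r of 0.996 with TPS2 and with TSL1, and at least 0.944 with each of the other genes except PGM1. PGM1 had r between 0.037 with GPH1 and 0.440 with GSY2. The points share their libraries and scaling, so these are descriptions. Of the 4749 genes with a mean of at least 10 CPM, those most like PGM2 outside the 10 were PNC1 (nicotinamidase, r = 0.995), IDH2 (a subunit of isocitrate dehydrogenase, 0.993), GID11 (0.992), EMI2 (a hexose kinase related to glucokinase, 0.991) and SDH8 (an assembly factor of succinate dehydrogenase, 0.989). PNC1 had 86.3 CPM in LiCl only and 235 CPM in cycloheximide only, against 276 CPM without drug. Those most like PGM1 were SOP4 (0.994), URA6 (uridylate kinase, 0.981), OSH6 (a lipid transfer protein, 0.978), SBH1 (a subunit of the Sec61 translocon, 0.961) and RBD2 (0.960).

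The genes around these 10 were taken from lists by function, with the same edgeR slope test. Over all genes tested 15.7% fell and 15.6% rose, and the lists were not tested against these shares. Of 5 genes of glycogen synthesis, 4 fell along the isobole and none rose: beside GSY1 and GSY2 these were the branching enzyme GLC3 (-0.28 per point) and the glycogenin GLG1 (-0.18), while the second glycogenin GLG2 was at 0.00. Of 4 genes of glycogen breakdown 2 fell, the debranching enzyme GDB1 (-0.33) and its inhibitor IGD1 (-0.25). GPH1 and the sporulation glucoamylase SGA1 (-0.02) did not pass. Of 5 genes for trehalose breakdown and its inhibitors 2 fell, the second neutral trehalase NTH2 (-0.14) and DCS2 (-0.23), and NTH1, the acid trehalase ATH1 (-0.08) and DCS1 (-0.10) did not pass. Genes for synthesis and genes for breakdown therefore had slopes of the same sign.

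Of 11 regulators of glycogen synthase 4 fell and none rose, against 15.7% and 15.6% of all genes. They were the phosphatase-targeting subunits GAC1 (-0.26) and PIG2 (-0.16) and the cyclins PCL7 (-0.14) and PCL6 (-0.08), which act with the kinase Pho85. Of 9 genes that handle glucose phosphates and UDP-glucose 6 fell and none rose, including PGM2, the UDP-glucose pyrophosphorylase UGP1 (-0.21), glucokinase GLK1 (-0.22) and EMI2 (-0.30). Hexokinase HXK1 had a slope close to that of PGM2 (-0.41 ± 0.15) but did not pass the test (edgeR, adjusted p = 0.0648). UGP1, the enzyme after phosphoglucomutase, had 192 CPM in LiCl only and 533 CPM in cycloheximide only, against 690 CPM without drug.

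The galactose pathway, which also passes through phosphoglucomutase, had slopes of the other sign. Of its 7 genes 3 rose towards LiCl and none fell: galactokinase GAL1 (0.21), the activator GAL4 (0.15) and the repressor GAL80 (0.11). Over all genes tested 15.6% rose and 15.7% fell. Such rises were not particular to this pathway. The alpha-specific genes STE3 (0.29) and MF(ALPHA)2 (0.21) also rose, STE3 from 0.889 CPM in cycloheximide only to 3.31 CPM in LiCl only. GAL3, the galactose sensor, was at 0.12 and did not pass (edgeR, adjusted p = 0.0910). GAL1 had 1.62 to 3.81 CPM over the isobole and 3.29 CPM without drug, GAL4 8.07 to 16.1 CPM and 11.4 CPM without drug, and GAL80 25.7 to 41.9 CPM and 40.5 CPM without drug.

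**Figure D4:**
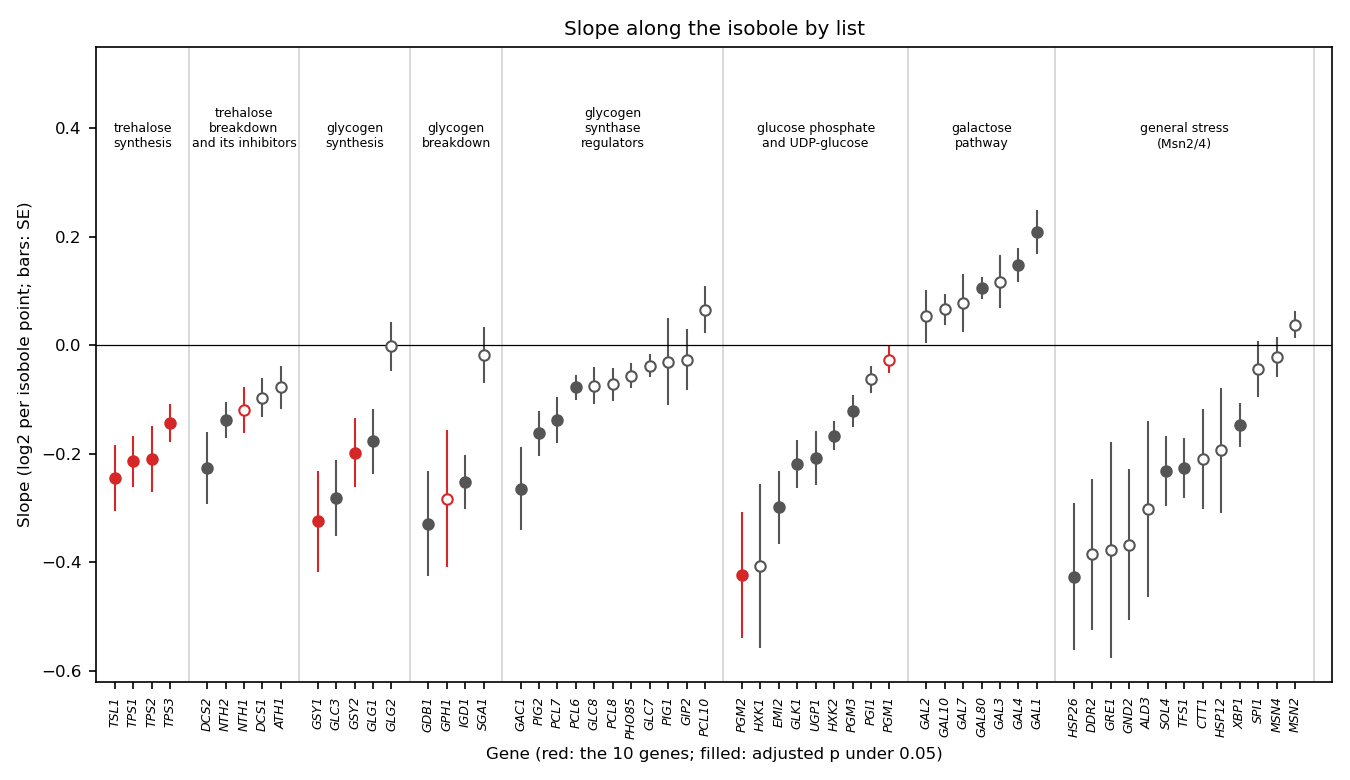
Slope along the isobole (log2 per point) with its standard error for the genes of 8 lists, ordered within each list by slope. Red points are the 10 genes, grey points the other list members, and filled points passed edgeR's test at an adjusted p under 0.05. Slopes that passed are negative in all lists except the galactose pathway, where 3 are positive.

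Genes of a general stress list for Msn2 and Msn4 were set beside the 10 genes. Copies of AGGGG or CCCCT before the genes of that list were not counted, and binding was not measured. This general stress list has 13 genes, which include MSN2 and MSN4 themselves. Of these 4 fell along the isobole and none rose, against 15.7% and 15.6% of all genes. Among the steepest, HSP26, a small heat shock protein, fell (-0.43, edgeR adjusted p = 0.0383), and DDR2 (-0.39), GRE1 (-0.38) and GND2 (-0.37) did not pass. The median log2 ratio of the stress list over no drug was 0.94, 0.86, 1.20, 1.17, 0.58, 0.48 and -0.07 at points 1 to 7, and that of the 4 trehalose synthesis genes was -0.24, -0.64, -0.27, -0.25, -0.94, -1.16 and -1.63. With edgeR the fitted line at the centre of the isobole was above no drug for 3 genes of the stress list. It was below no drug for 1 gene. Over all genes these shares were 15.7% and 11.7%. For the 4 trehalose synthesis genes the line was lower in 2 and higher in none. The difference between the lists was not tested.

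HSP12, a membrane-protecting stress protein singled out after its values were seen, had 522, 995, 1056, 1142, 782, 566 and 248 CPM at points 1 to 7, and 39.3 CPM without drug. All 7 isobole libraries were above the no drug library, as were those of MSN2, MSN4, ALD3, GRE1 and SPI1, under both scalings. The list was not uniform: all 7 libraries of TFS1 were below no drug under both scalings. TFS1 had 31.8 to 87.6 CPM on the isobole and 159 CPM without drug. Outside the list, all 7 libraries of TSL1, GSY1, GSY2, PGM1 and PGM2 were also below no drug under both scalings. TPS1, TPS2, TPS3, NTH1 and GPH1 had isobole libraries above no drug with total counts. In LiCl only HSP26 and SOL4 were at log2 ratios of -2.15 and -1.42 over no drug. Apart from HSP26 and GRE1, these genes of the list were also named after their values were seen. HSP12 shared the high values at points 3 and 4 and the low value at point 7 with the 9 genes, and did not share their dip at point 2 relative to point 1. At the centre of the fitted line the edgeR estimate of HSP12 over no drug was 4.23 ± 0.76. No p-value is given, as the gene was picked by its values. That line is straight, whereas the curvature estimate of HSP12 was -0.175 ± 0.015.

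**Figure D5:**
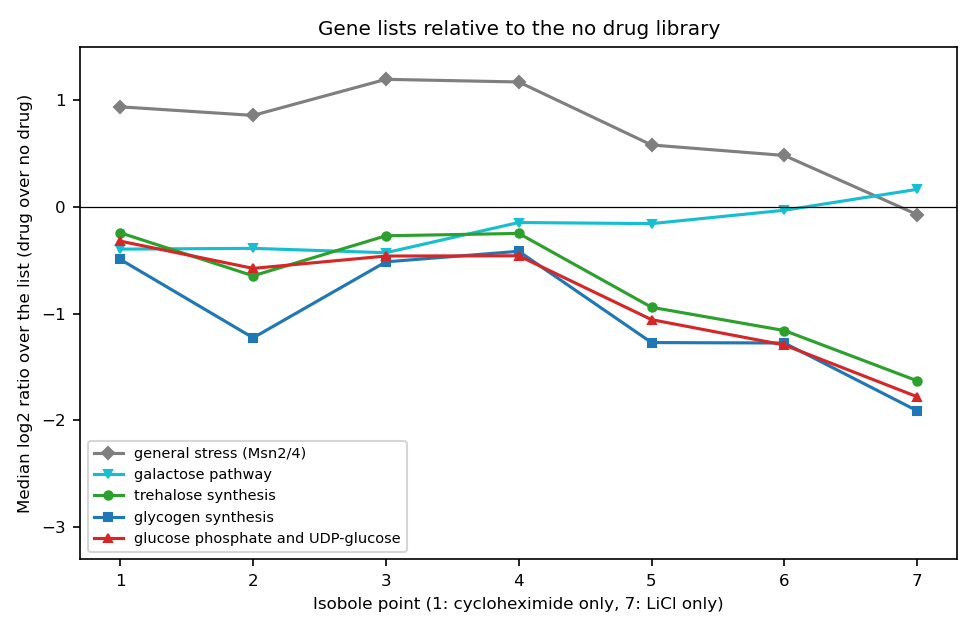
Median log2 ratio (TMM-scaled CPM plus 1) over no drug of 5 gene lists at each isobole point. The general stress list lies above 0 at points 1 to 6 and at -0.07 in LiCl only (0.24 with total counts). The trehalose synthesis, glycogen synthesis and glucose phosphate lists lie below 0 at all 7 points, except that with total counts trehalose synthesis is at 0.06 at point 1 and 0.01 at point 4, and they are lowest in LiCl only, at -1.63, -1.91 and -1.78.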

How the data were processed

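Libraries were ribodepleted total RNA of BY4741, sequenced as 50-base single-end reads. The deposited values are raw counts per CDS feature: the authors aligned reads to build R64 with TopHat and counted them with featureCounts 1.6.2, per the file headers at every location of multi-mapping reads, for every overlapping feature and without a strand setting. Intron counts were not used, as none of the 10 genes has an intron feature. Coordinates of the 10 genes were identical in the RefSeq annotation of R64, which gave symbols for 6014 genes.

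CPM are counts per 1000000 CDS counts after TMM scaling over all 8 libraries (edgeR 4.0.16, R 4.3.3). Slope, curvature and drug terms were tested two-sided with edgeR's quasi-likelihood test after filterByExpr, with Benjamini-Hochberg adjustment over all genes tested (6494 for slope, 6516 for curvature, 6543 for drug) and a threshold of 0.05. The point number was centred at 4. Ratios of 2 libraries used 0.5 added counts and 95% Poisson intervals. They carry no test, and 2-fold was the threshold. The standard error is the estimate over the square root of its F statistic. Intervals and counts cover counting error only, and whether the libraries came from separate experiments is not given in the sources used here. Likeness was Pearson's r of log2(CPM + 1). Alternatives were DESeq2 1.42.0, its size factors, total counts, no filter and leaving out each isobole library. Sequences were read with Python 3.11.15, pandas 2.3.3 and Biopython 1.88, and figures drawn with matplotlib 3.10.9. The tests were also run on simulated counts that varied independently from gene to gene. Swings shared between genes, as seen at some isobole points, were not simulated, so that run cannot show how the tests behave with them.

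Genes named in the text by rule were all 10 genes, up to 4 others of each list with the largest absolute slope, and the 5 genes most like PGM2 and PGM1. HSP12, MSN2, MSN4, ALD3, SPI1, TFS1 and SOL4 of the stress list were outside this rule and were named after their values were seen. The same holds for PGM3 of the glucose phosphate list. The strain was checked with markers of its deletions and mating type. The genes and lists were chosen with earlier results of these data known.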

Additional observations from a re-analysis of the deposited data

How the results depend on the processing

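No paired analysis was possible because each condition has 1 library. Leaving out each isobole library in turn gave 349 to 1063 genes that rose and 491 to 1130 that fell along the isobole (1014 and 1017 with all), and 0 to 9 of the 10 genes fell. The slope of PGM1 lay between -0.047 without point 7 and 0.00290 without point 1, where it changed sign. For curvature, genes with positive and negative estimates that passed numbered 70 and 36 with total counts, 81 and 195 with DESeq2, and 0 to 91 and 0 to 146 when leaving out each library (20 and 57 in edgeR with all). Of the 10 genes 2 passed with a negative estimate with DESeq2, and 0 to 2 when leaving out each library. Against no drug, total counts gave 1923 genes higher and 233 lower in the drug libraries (1024 and 764 with TMM), with 0 of the 10 genes lower. Leaving out each library gave 849 to 1128 higher, 584 to 904 lower, and 1 to 8 of the 10 genes lower. With total counts 1274 genes were at least 2-fold higher and 214 lower in LiCl only than without drug (756 and 418 with TMM), and 736 and 49 in cycloheximide only (378 and 138). The causes of these changes were not tested. With 1 library a condition, depth is not the limit for these genes, of which the lowest level was 54.0 CPM.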
